A study of Homo sapiens with 6 samples.

Results

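Heparan sulfate is a long, sulfated sugar chain carried by core proteins, and 10 genes of its biology were read on 6 Affymetrix U133 Plus 2.0 arrays of JJN3, an established human myeloma cell line. The genes are the syndecans SDC1, SDC2, SDC3 and SDC4, the glypicans GPC1, GPC4 and GPC6, the chain polymerases EXT1 and EXT2, and the heparanase HPSE, 10 of 19777 genes named on the array. They were found by Entrez identifier in the platform annotation, and every probe set that names only 1 of them was kept, which gave 21 of 54613 probe sets other than controls. GPC6 was selected on its difference between these groups, since it was among the genes of smallest p in an earlier analysis of the same arrays, and the other members were chosen by their place in the pathway. The differences of all members are therefore given as a description. Where the fit over all probe sets is counted, the members' count stands beside that over all and is no evidence about them.

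For 3 arrays, JJN3 had received a short hairpin RNA (shRNA) directed at CKS1B, which encodes a subunit that binds cyclin-dependent kinases; these are called the knockdown arrays. The other 3, the control arrays, held a scrambled shRNA. Both came by transduction with a virus, so the control cells were transduced as well. Titles letter the arrays within a group from A to C, and values below follow that order. The same letters recur in both groups, and same-letter arrays carry consecutive numbers, so the letters may mark pairs, which no label states. Control array B also has the word poly in its title, unexplained. No label mentions separate cultures, so the spread between them may be technical, and 3 arrays a group limit the precision. For the time after transduction, and for whether the cells were 1 clone, the labels say nothing.

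Syndecans cross the plasma membrane and glypicans are tied to its outer face by a lipid anchor. Their heparan sulfate chains bind growth factors, chemokines and matrix proteins at the cell surface. EXT1 and EXT2 form the enzyme that lengthens the chain, and heparanase cuts it outside the cell and in lysosomes. SDC1 is the antigen CD138, which marks plasma cells and most myeloma cells, and its shed form and heparanase are both studied as drivers of myeloma growth in the marrow.

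GPC6 was the member whose values set the groups apart, and it did so through both of its probe sets. Every knockdown array read above every control array, and the mean log2 values differed by 2.81-fold for 1 probe set and 3.75-fold for the other. The other 19 member probe sets had groups that overlapped. The groups were thus apart in 9.52% of the member probe sets, beside 7.77% of all probe sets, and GPC6 was chosen on this contrast. In 4 of the 9 genes with more than 1 probe set, the probe sets differed in the sign of their difference. HPSE read lower on 2 of the 3 knockdown arrays through its brighter probe set. In SDC2, EXT2, SDC3, GPC1 and GPC4 a single array lay far from the other 5 in at least 1 probe set.

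The 3 glypican members are shown by their upstream sequence, and a link between these letters and the array values was not tested. The sequences are the 250 bases before the transcript start in RefSeq (build GRCh38.p14), 5′ to 3′ on the gene's strand. Capitals mark matches to the GC box GGGCGG and to the TATA box TATAAA on either strand.

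GPC6 (chr13:93226557-93226806, plus strand): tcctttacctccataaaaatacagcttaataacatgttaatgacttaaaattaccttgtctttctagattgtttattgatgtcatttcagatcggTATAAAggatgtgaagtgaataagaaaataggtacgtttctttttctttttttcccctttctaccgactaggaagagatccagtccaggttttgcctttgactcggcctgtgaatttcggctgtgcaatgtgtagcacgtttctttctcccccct

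GPC1 (chr2:240435413-240435662, plus strand): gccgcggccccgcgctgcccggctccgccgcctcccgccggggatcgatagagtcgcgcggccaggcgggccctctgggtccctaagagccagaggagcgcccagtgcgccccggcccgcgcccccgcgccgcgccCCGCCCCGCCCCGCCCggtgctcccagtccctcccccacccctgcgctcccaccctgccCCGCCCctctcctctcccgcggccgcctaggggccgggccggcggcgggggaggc

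GPC4 (chrX:133415490-133415739, minus strand): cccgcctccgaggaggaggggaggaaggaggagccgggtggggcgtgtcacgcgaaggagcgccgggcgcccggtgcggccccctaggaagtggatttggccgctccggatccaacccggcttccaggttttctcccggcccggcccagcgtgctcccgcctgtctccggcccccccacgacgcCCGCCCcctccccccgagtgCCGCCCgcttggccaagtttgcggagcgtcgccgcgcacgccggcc

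The GPC6 stretch was poor in G and C. It held 37.6% G and C and 6 CpG pairs, against medians of 58% and 11 over 35116 RefSeq promoters of the same length, and 8.9% of those promoters had a lower G and C content. GPC1 held 84% G and C with 36 CpG pairs, and GPC4 76% with 32. No GC box stood before GPC6, 4 stood before GPC1, in part overlapping each other, and 2 before GPC4, while 42.6% of all promoters held at least 1. GPC6 had 1 TATA box match, which begins 155 bases before the start, and 10.7% of promoters held one. A promoter listed for EXT2 (52.4% G and C) and one for HPSE (51.6%) also held 0 GC boxes and 1 TATA box match. The other promoters listed for EXT2 and HPSE held 2 GC boxes and no TATA box match. A further motif, TGCTGAC, part of the sequence that MAF binds, was searched on both strands, because MAF drives a program in some myelomas. It stood before none of the 3 glypicans and in 3.43% of all promoters. These counts describe letters in a window and not sites in use. The promoter table held 8 of the 10 members, without SDC2 and EXT1.

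Knockdown array B stood furthest apart from the rest, and control array C differed from the remaining 4 to a lesser degree. The Pearson correlation of knockdown array B with the other arrays was 0.577 to 0.61, against 0.879 to 0.958 among the other 5. It was taken over all probe sets, which are not independent replicates. Its ratio of the 3′ to the 5′ actin control, which rises with RNA degradation, was 12.4, against 1.05 to 2.93. On knockdown array B, probe sets with a scrambled mean below 100 read a median of 1.76 log2 units above the control arrays. Those from 100 to 1000 read 0.64 above, and those from 1000 up at -1.004. On knockdown arrays A and C these medians lay between -0.33 and 0.09. Control array C had a median of 201.6 and a log2 SD of 1.83, where the 4 arrays other than these 2 had medians of 117.5 to 136.3 and SDs of 2.20 to 2.24. It was the highest control in 13 of the 21 member probe sets, and 4 of their differences change sign without it. CKS1B itself read 7294 to 8441 on the control and 269 to 828 on the knockdown arrays, a log2 difference of -4.02 (SE 0.44). With 3 arrays a group, the two-sided exact permutation p was 0.1, which is the lowest possible. The limma adjusted p over all probe sets was 0.122, and 3.15e-05 without array B, where the difference was -3.63. Of 8 plasma cell markers other than SDC1, 7 read at or above the median probe set, and the sum was 38092 to 42775 and 37908 to 45771 in the 2 groups. Within that sum 6 of the 8 were lower with the knockdown and 2 higher (median log2 -0.48, and -0.25 without array B). MZB1 read below all controls on every knockdown array (log2 -1.43, SE 0.53). POU2AF1 read above all controls on every knockdown array (log2 0.65, SE 0.75, and 0.35 without array B). Its values there were 15392, 30311 and 17267, beside 11471 to 14602 on the control arrays. On array B TNFRSF17 read 408.5 beside a control mean of 5873. Summed epithelial markers read 2806 to 3093 on the control and 1882 to 1972 on the knockdown arrays, and EPCAM held most of that gap, with means of 1899 and 931 (log2 -1.14, SE 0.45). KRT8 and KRT18, the other epithelial markers at or above the median, had log2 differences of -0.002 and 0.02. Summed stromal markers read 1070 to 1525 and 678 to 2279, T cell markers 473 to 1597 and 585 to 5307, and myeloid markers 346 to 446 and 326 to 788, the highest each time on array B; none was listed at 0. The part of array B and of these markers in the results below was not tested beyond the values without array B or without control array C. In bulk RNA, fewer cells of a type and less RNA per cell cannot be told apart.

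Values are MAS5 intensities on a linear scale, and differences are knockdown minus control of log2(value + 16), each with the standard error (SE) of the fit; adding 16 shrinks the differences of dim probe sets. Of the 21 member probe sets, 0 passed limma's adjusted p of 0.05, as did 0% of all 54613. Both GPC6 probe sets and no other member had an unadjusted p under 0.05, a count of 2 where 1.77% of all had one. Without array B 0 members passed, where 0.0201% of all did, and 3 had an unadjusted p under 0.05 against 5.66% of all. The groups did not overlap in 2 member probe sets, both higher with the CKS1B shRNA, where 4.17% of all probe sets were wholly higher and 3.6% wholly lower. The median difference over the members was 0.23, beside 0.12 over all probe sets, with 12 members higher and 9 lower. Without array B the median was -0.003, beside -0.15 over all, with 10 higher and 11 lower. Since this contrast chose GPC6, nothing is read from these counts. A filter at the median of all probe sets (a log2 mean of 7.34, a value of about 145.8) would keep 14 of the 21.

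**Figure D1:**
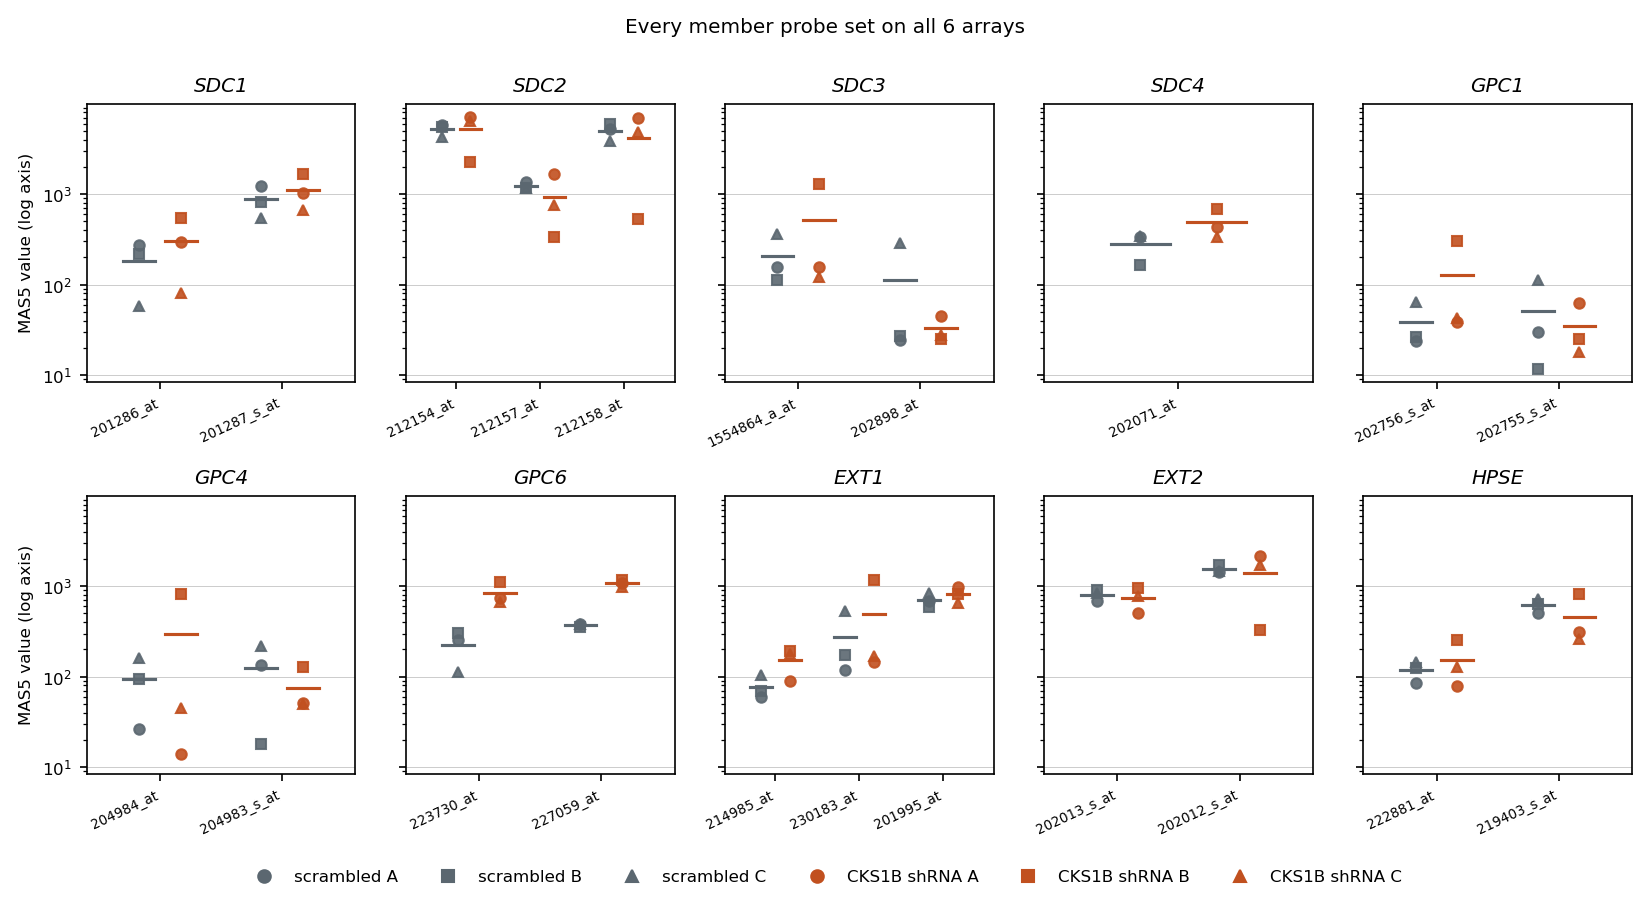
MAS5 values (log axis) of the 21 probe sets of the 10 genes, 1 point per array and a bar at the mean of each group of 3; grey is the scrambled shRNA, orange the CKS1B shRNA, and the marker shape gives the letter. In GPC6 all orange points lie above all grey ones, and in SDC2 the orange square of array B lies far below the others.

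Of the syndecans, SDC1 did not differ between the groups beyond the spread of its arrays. Its probe set 201287_s_at read 1242, 828 and 552 in the controls, against 1020, 1684 and 670 with the knockdown. The groups overlapped, with array C the lowest of its group on both sides. The log2 difference was 0.33 (SE 0.45), and -0.003 without array B. The other SDC1 probe set, 201286_at, read 276.5, 215.4 and 58.4 against 295.5, 543.6 and 80.6, again with the lowest value of each group on array C. Its difference of 0.58 (SE 0.78) was 0.02 without array B and -0.02 without control array C. Control array C minus the mean of control arrays A and B was -1.81 log2 units in this probe set, so the spread within the controls was larger than either group difference.

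SDC2, a syndecan best known from mesenchymal cells, read on array B far below its other arrays. Probe set 212158_at gave 5199, 5991 and 3887 in the controls and 7034, 536 and 4901 with the knockdown, so array B read 9.37-fold below the scrambled mean. Its log2 difference of -0.89 (SE 0.81) turned to 0.25 (SE 0.27) without array B. Through 212154_at the values were 5805, 5574 and 4245 against 7202, 2294 and 6444. The difference there went from -0.12 to 0.40 (SE 0.25) without array B, and arrays A and C then lay above all 3 control arrays. The third probe set, 212157_at, gave 1362, 1172 and 1160 against 1677, 336 and 767. It stayed lower without array B, by -0.11 (SE 0.32) on the log2 scale. In all 3 SDC2 probe sets array A lay above every control, while array C lay within, above and below the control range in turn.

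SDC3, the syndecan known mainly from nervous tissue, was dim in most arrays. Probe set 1554864_a_at read 1283 on array B, 6.14-fold above the scrambled mean, and 113 to 359 on the other 5 arrays. Probe set 202898_at read 290.2 on control array C and 24.1 to 45.4 on all others. A single array of opposite groups thus set the sign of each difference, 0.63 (SE 0.83) and -0.75 (SE 0.93). Without array B they were -0.40 and -0.64, and without control array C 1.08 and 0.21. SDC4, a widely expressed syndecan of focal adhesions, had 1 probe set, which read 340, 165 and 347 on the control and 437, 686 and 337.5 on the knockdown arrays. Its groups overlapped, with a log2 difference of 0.75 (SE 0.48) that was 0.48 (SE 0.43) without array B.

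Among the glypicans, GPC6 read higher on every CKS1B shRNA array. Probe set 227059_at read 382, 353 and 387 in the controls (mean 374 ± 18.1, SD, n = 3). Its knockdown values were 1091, 1184 and 969.5 (mean 1081 ± 107.5, SD, n = 3). The lowest knockdown array was thus well above the highest scrambled array, and the control arrays differed from each other by at most 1.09-fold. The log2 difference was 1.49 (SE 0.35), or 1.36 relative to the median of all probe sets, and 1.42 (SE 0.31) without array B. Within letters, which were not taken to pair the arrays, it was 1.47 for A, 1.70 for B and 1.29 for C.

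The second GPC6 probe set, 223730_at, gave the same order of groups with a wider spread. It read 254, 307 and 114 in the controls (mean 225 ± 99.6, SD, n = 3) and 745, 1126 and 672 with the knockdown (mean 848 ± 244, SD, n = 3). Its log2 difference of 1.91 (SE 0.47) was 1.69 (SE 0.43) without array B, and within letters 1.49, 1.82 and 2.41. The lowest control value, on control array C, stood at -1.18 log2 units from the mean of control arrays A and B, while 227059_at stood at 0.07 there. On knockdown arrays A and C both GPC6 probe sets stood 1.34 to 1.76 log2 units above the scrambled mean. The medians of all probe sets by level lay between -0.33 and 0.09 on these arrays.

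**Figure D2:**
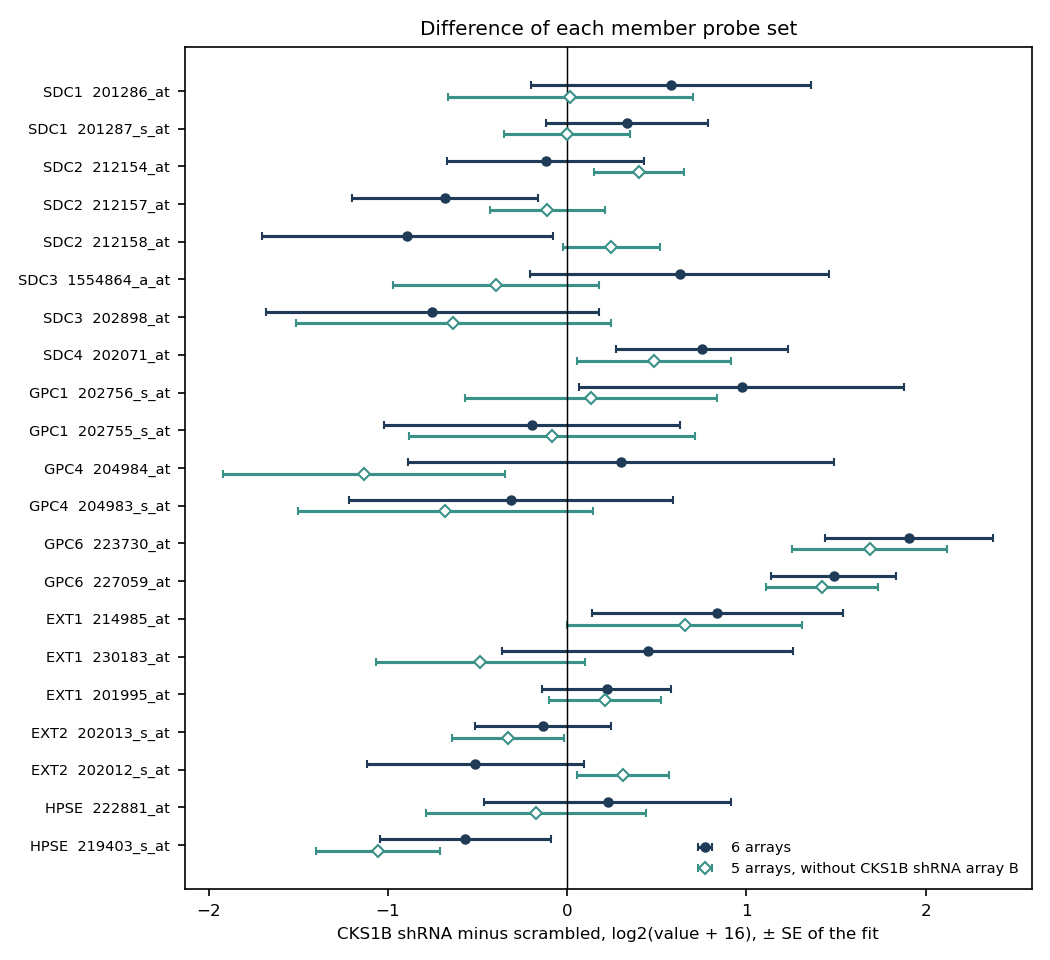
Log2 difference of each member probe set (CKS1B shRNA minus scrambled, log2(value + 16), points) with the SE of the fit (bars), for all 6 arrays (filled circles) and without knockdown array B (open diamonds). Both GPC6 probe sets lie at 1.42 or above under either choice of arrays, and 8 of the 21 probe sets change sign between the choices.

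GPC1 and GPC4 were dim, and knockdown array B or control array C held the highest value of each probe set. GPC1, a glypican raised in several carcinomas, read 307 on array B and 23.6 to 64.4 elsewhere through 202756_s_at. Through 202755_s_at it read 113 on control array C and 11.6 to 62.5 elsewhere. The log2 differences were 0.97 (SE 0.91) and -0.20 (SE 0.83), and 0.13 and -0.08 without array B. Without control array C the second was 0.42. GPC4 read 821 on array B against 13.9 to 159.5 elsewhere through 204984_at, with a difference of 0.30 (SE 1.19) that was -1.13 (SE 0.79) without array B. Through 204983_s_at it read 17.9 to 220.9 on the control and 50.5 to 126.4 on the knockdown arrays, a difference of -0.32 (SE 0.90) that was 0.26 without control array C. All 4 of these probe sets lay below the median of all probe sets. For neither gene did these values separate the groups.

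The chain polymerases had at least 1 bright probe set each, and neither gene differed between the groups beyond the spread. EXT1, a subunit of the enzyme that lengthens the chain, read 683, 594 and 834 on the control arrays through 201995_at. The knockdown arrays read 991, 826 and 659 through the same probe set. The groups overlapped, with a log2 difference of 0.22 (SE 0.36), and 0.21 without array B. Its dimmer probe set 214985_at read 59.0 to 103.5 and 90.3 to 193.7, a difference of 0.84 (SE 0.70), with the highest control array above only knockdown array A. The third, 230183_at, read 1186 on array B, 526 on control array C and 119.5 to 173.6 otherwise, so both groups had 1 high array.

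EXT2, the partner that EXT1 needs for full activity, had probe sets that parted on array B. Through 202012_s_at the control arrays read 1439, 1703 and 1486, and the knockdown arrays 2141, 332 and 1705. Array B thus lay 4.65-fold below the scrambled mean, while arrays A and C lay above all controls, array C by about 2 units. The log2 difference was -0.51 (SE 0.61), and 0.31 (SE 0.26) without array B. Through 202013_s_at the values were 679, 903 and 832 against 508, 951 and 787, with overlapping groups and a difference of -0.14 (SE 0.38). On array B the second probe set read 951 and the first 332, and the cause of this gap was not tested. Both carry the suffix _s_at, which marks probe sets that can bind more than 1 transcript.

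HPSE, the heparanase that cuts heparan sulfate chains, read lower on knockdown arrays A and C and highest on array B. Probe set 219403_s_at gave 501, 631 and 717 in the controls (mean 616 ± 109, SD, n = 3). With the knockdown it gave 314, 814 and 258 (mean 462 ± 306, SD, n = 3). Arrays A and C thus lay below all controls and array B above them. The log2 difference of -0.57 (SE 0.48) was -1.06 (SE 0.35) without array B, which is 2.08-fold lower. The dimmer probe set 222881_at read 86.1, 124.5 and 145.5 against 79.8, 253.1 and 127.5, with array A below every control and array C among them. Its difference was 0.23 (SE 0.69), and -0.17 (SE 0.62) without array B.

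Without array B the groups did not overlap in 5 member probe sets, where 7.99% of all probe sets were wholly higher and 13.7% wholly lower. These were both of GPC6, SDC2 212154_at and EXT2 202012_s_at, all higher, and HPSE 219403_s_at, lower. In SDC2, EXT2 and HPSE another probe set of the same gene had overlapping groups.

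**Figure D3:**
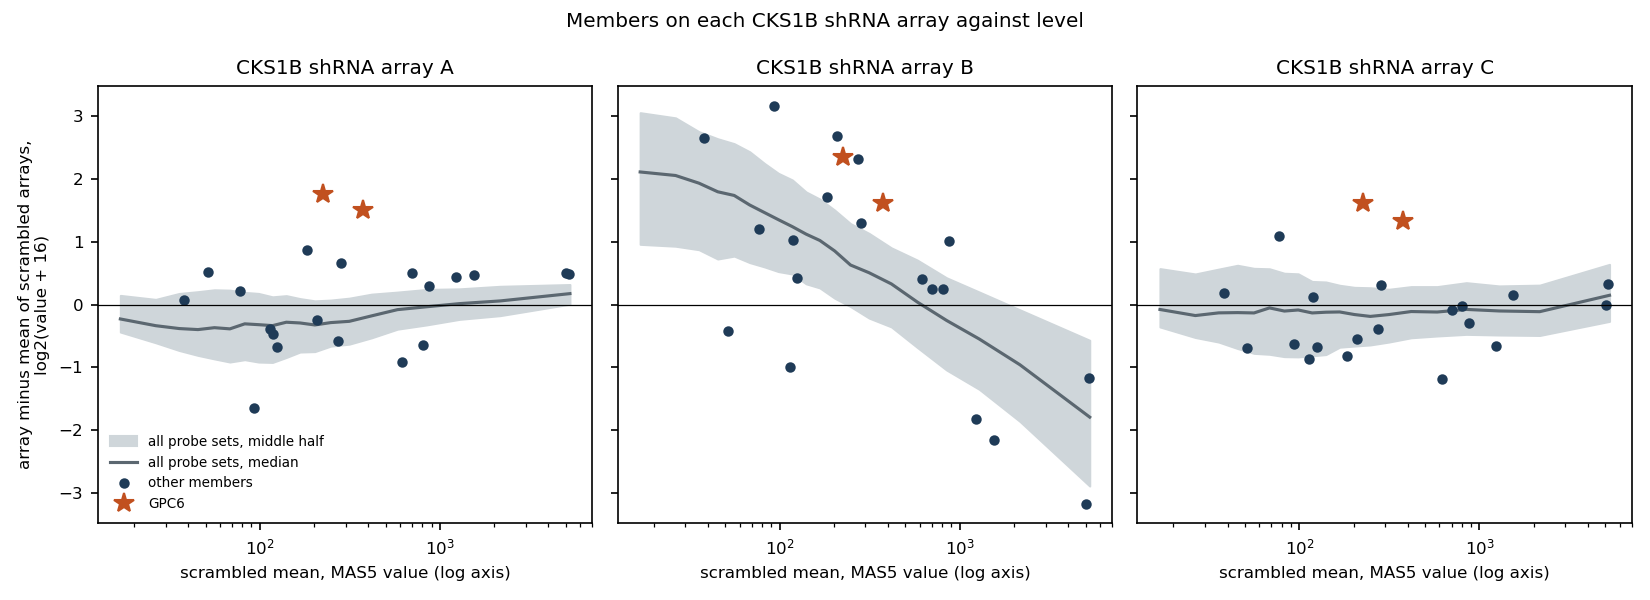
Each knockdown array minus the mean of the control arrays (log2(value + 16)) against the scrambled mean (log axis), for the 19 other member probe sets (dots) and GPC6 (stars), with the median (line) and the interquartile range (band) of all probe sets in 20 level bins. On array B the line falls from above 0 in dim to below 0 in bright probe sets, and the GPC6 stars lie above the band on each of the 3 arrays.

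On array B most members lay on the same side of the controls as other probe sets of their level. Of the 13 member probe sets with a scrambled mean from 100 to 1000, 12 read above the control arrays on array B, and of the 4 from 1000 up, 0 did. Array B held the highest value of all 6 arrays in 13 of the 21 member probe sets and the lowest in 4. On array A, 6 of the 13 middle probe sets read above the control arrays, and on array C 4 did. GPC6 was above on all 3 arrays through both probe sets.

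Over the 6 arrays, the genes whose pattern was most like GPC6 227059_at were HDAC9, STARD3NL, MYO1D, DCBLD2 and MRPS10. Their Pearson correlations with it were 0.983 to 0.996 on log2 values, among 27306 probe sets at or above the median. HDAC9, a histone deacetylase, had a log2 difference of 1.44 and MYO1D, an unconventional myosin, one of 1.31. In 33 probe sets the correlation was at least 0.95, while GPC6 223730_at, the other probe set of the gene, ranked 159th at 0.901. The points share the arrays and the group labels, and the measure picks genes that follow the groups, so it is a description.

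Outside the members, 61 of 65 listed genes of the heparan sulfate pathway were measured, each through its brightest probe set, and limma called 0 of them at an adjusted p of 0.05. The count with an unadjusted p under 0.05 was also 0, where 2.24% of all genes had one. Without array B it was 2 of 61, where 7.28% of all genes had one, with 0 called after adjustment. The groups did not overlap in 4 genes that were higher (6.56%) and 3 that were lower (4.92%), where 4.33% and 4.69% of all 19777 genes were. The median difference was 0.08, beside 0.04 over all genes. Without array B 7 were wholly higher and 9 wholly lower, beside 10.2% and 14.2% of all genes, and the median was -0.01 beside -0.11. Adjusted p was 0.9999 in limma for each gene named below with 6 arrays. Where a gene's further probe sets are counted below, 4.17% of all probe sets were wholly higher and 3.6% wholly lower. Probe sets of the same gene are not independent, so these counts are a description.

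Of 8 other core proteins 6 were higher and 2 lower (median log2 0.32, and -0.21 without array B), and in 0 did the groups stand apart. COL18A1, a basement membrane collagen, read 176.1, 41.6 and 39.4 on the control and 183.2, 143.3 and 188.9 on the knockdown arrays (log2 1.14, SE 0.75). AGRN, or agrin, read 4065 on array B and 218 to 507 elsewhere (log2 0.69, and -0.65 without array B). Of 10 genes of the linker and chain assembly 4 were higher and 6 lower (median -0.23, and 0.03 without array B). EXTL2, a transferase related to EXT1, read 2094, 2213 and 2225 against 1855, 1002 and 1232, below the controls on every knockdown array (log2 -0.72, SE 0.38, and -0.52 without array B). B4GALT7, which adds the first galactose of the linker, read 719 to 1000 and 215 to 1078, with overlapping groups. Its 2 probe sets were both lower, and in 1 of them the groups did not overlap.

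Of 15 genes that deacetylate, epimerise or sulfate the chain, 8 were higher and 7 lower (median 0.04, and -0.47 without array B). HS6ST2, a 6-O-sulfotransferase, read 2973, 2803 and 2072 against 1842, 1589 and 1763, below all controls (log2 -0.58, SE 0.37, and -0.52 without array B). All 3 HS6ST2 probe sets were lower, 2 of them with groups that did not overlap. HS2ST1, the 2-O-sulfotransferase, read 2137, 1751 and 1238 against 727, 1459 and 861 (log2 -0.77, SE 0.40). Array B was the HS2ST1 array that lay within the scrambled range, and without it the difference was -1.06. All 4 HS2ST1 probe sets were lower, 1 of them with groups that did not overlap. These 2 genes were named for the lowest p of their list, and they did not pass the test over all probe sets either with or without array B.

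**Figure D4:**
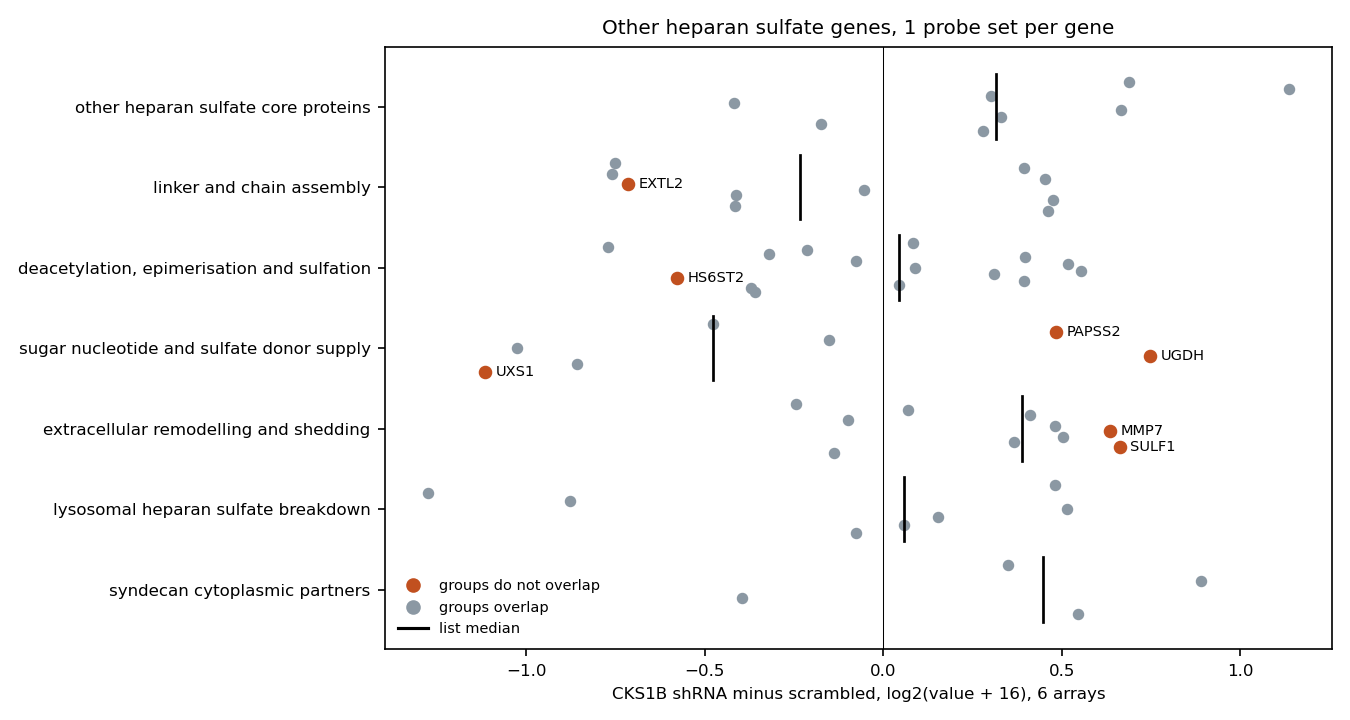
Log2 difference (CKS1B shRNA minus scrambled, log2(value + 16), 6 arrays) of 61 further genes in 7 lists, 1 probe set per gene, with the list median as a line; orange marks genes whose groups do not overlap. The 7 named genes lie on both sides of 0, and no list has all its genes on one side.

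Of 7 genes that supply sugar nucleotides or the sulfate donor, 2 were higher and 5 lower (median -0.48, and -0.21 without array B). UGDH, which makes UDP-glucuronic acid, read 959, 1144 and 818 against 1266, 2626 and 1300, above all controls (log2 0.75, SE 0.40, and 0.41 without array B). UXS1, which turns that sugar into UDP-xylose, read 1791, 1732 and 1271 against 1211, 298 and 1019, below all controls (log2 -1.12, SE 0.51, and -0.50 without array B). PAPSS2, a sulfate donor synthase chosen after its values were seen, read 271 to 353 and 409 to 471 (log2 0.48, SE 0.40).

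Of 10 genes that remodel or shed the chains and cores, 7 were higher and 3 lower (median 0.39, and -0.13 without array B). SULF1, which removes 6-O-sulfate outside the cell, read 1685, 1982 and 1790 against 2077, 4588 and 2507, above all controls (log2 0.66, SE 0.42, and 0.33 without array B). Of its 3 probe sets 2 were higher and 1 lower. MMP7, a protease that sheds SDC1, read 148, 131 and 157.2 against 189, 421 and 157.6, so its groups were parted by less than 1 unit. Of 7 lysosomal genes 4 were higher and 3 lower (median 0.06, and 0.09 without array B), and in 0 did the groups stand apart. GUSB, or beta-glucuronidase, read 177 on array B and 2396 to 3163 elsewhere, with a log2 difference of -1.27 that was -0.004 without array B. IDS, iduronate sulfatase, read 896 to 1711 and 1557 to 2267 (log2 0.51). Of its 10 probe sets 8 were higher and 2 lower, and in 1 the groups stood apart, higher with the knockdown. Of 4 cytoplasmic partners of the syndecans 3 were higher and 1 lower (median 0.45, and -0.04 without array B), led by PRKCA (0.89, and -0.08 without array B, which read 2637) and CASK (0.35, and -0.01 without it).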

How the data were processed

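The deposited table holds a linear intensity for each probe set and array. The authors made these intensities with MAS5, per the submitters' processing notes, whose version is not stated. Every array had a 2% trimmed mean between 500.0 and 500.1. Of 54675 probe sets, 62 controls were left out. Names came from the platform annotation, updated by Entrez identifier to RefSeq symbols (GRCh38.p14): 41091 probe sets had 1 gene, 1801 several and 11721 none.

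All 54613 probe sets, without a filter, were fitted on log2(value + 16) with limma 3.58.1 in R 4.3.3 (lmFit, eBayes with trend), with no covariate, and p-values were adjusted by Benjamini-Hochberg. Pathway genes used the probe set of highest mean. The genes named further were, per list, called genes or else the 2 with the lowest p, and the 5 genes most correlated with GPC6. Members, lists and alternatives were chosen with earlier results of these data known. The alternatives were pseudocounts of 1 and 64, a filter, median centring, quantile normalization, the letter as a block, no trend, array weights, other probe set choices and leaving out arrays. The scripts were tested on simulated data. Figures used Python 3.11.15 and matplotlib 3.10.9.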

Additional observations from a re-analysis of the deposited data

How the results depend on the processing

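GPC6 kept its direction under all 19 alternatives fitted per probe set, with log2 differences of 1.26 to 1.59 for 227059_at (19 settings) and 1.39 to 2.17 for 223730_at (18 settings). GPC6 was chosen on these values, and every knockdown array read above every control array. Leaving out arrays, another pseudocount, the filter or the block could therefore not reverse its sign, so this is a description. Of the 21 member probe sets 6 never changed sign: both of GPC6, EXT1 214985_at, HPSE 219403_s_at, SDC2 212157_at and that of SDC4. The others changed sign under 1 to 5 alternatives. It changed in 8 without CKS1B shRNA array B, 4 without scrambled array C, 9 without both arrays of letter B, and 2 with quantile normalization. Array weights called 86 probe sets over all, and gave CKS1B -3.62; 1 of the 86 was GPC6 227059_at, which was chosen on these same values, so that call is no independent evidence. Calls over all probe sets were 0 to 11 when single arrays were left out, the 11 without CKS1B shRNA array B, and CKS1B then ranged from -4.41 to -3.63. There were 16 calls without both arrays of letter B (CKS1B -3.59) and 2 with quantile normalization without array B (CKS1B -3.68), and CKS1B passed in each of these fits. The other alternatives called 0, and 0 pathway genes passed under any. Member probe sets with groups apart numbered 2 to 5 when 1 array was left out (9.52% to 23.8% of members, beside 11.7% to 21.7% of all probe sets). They numbered 4, 7 and 7 without both arrays of letters A, B and C (19%, 33.3% and 33.3%, beside 25.3%, 31.6% and 31.8% of all). Quantile normalization gave 3 (14.3%, beside 11.1%) and median centring 5 (23.8%, beside 7.66%), and the cause was not tested. Beside GPC6, the genes apart under these scalings were GPC1 (202756_s_at, higher, under both), and EXT1 (214985_at, higher) and HPSE (219403_s_at, lower) under median centring. The letter as a replicate block left 0 calls, and GPC6 227059_at at 1.49 (SE 0.39). Deviations of same-letter arrays correlated at 0.347, -0.16 and -0.153 for A, B and C, and 2 of 6 arrays correlated best with their own letter. With so few arrays a group, and with array B and scrambled array C apart from the rest, this cannot decide whether the letters mark pairs. The main fit did not pair the arrays, and the block fit gives the values with the letter taken into account. Dim probe sets, as in GPC1 and GPC4, lie near background on these arrays, which limits their reading.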
